A study of Mus musculus with 2 samples.

Results

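The chaperones of the endoplasmic reticulum (ER) and the genes of the unfolded protein response were described here in adult mouse cortex. The 36 genes were chosen by gene symbol, with levels and between-animal ratios of these libraries already known, and they stand among 55536 annotated genes. Their values are therefore given as descriptions, with no test. Total RNA of the left cerebral cortex came from 2 male B6CASTF1/J mice aged 8 to 10 months, an F1 hybrid of B6 and Cast. Each library was made from 300 ng of RNA, and the animals, numbered 2 (replicate 1) and 4 (replicate 2), form 1 group under the same donor label, with no treatment named. There is thus no condition to compare, and with 1 library per animal a difference between the animals has no replicate check.

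The ER folds membrane and secreted proteins, and its lumen holds an Hsp70 chaperone (BiP, from Hspa5), an Hsp90 chaperone (Grp94, from Hsp90b1), lectin chaperones and protein disulfide isomerases. When unfolded proteins accumulate, membrane sensors act: IRE1 (Ern1) splices the Xbp1 mRNA, PERK (Eif2ak3) slows translation and favours Atf4, and ATF6 is cleaved to a transcription factor. XBP1 and ATF6 drive chaperone and degradation genes, and ATF4 drives amino acid and redox genes together with Ddit3, which encodes CHOP. Neurons and secretory epithelia are among the cells that use these genes heavily.

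Replicate 1 held 26925514 expected counts and replicate 2 held 30143684. Markers of cortical excitatory neurons were abundant, as Camk2a had 1039 TPM (a level relative to transcript length and to all transcripts) in replicate 1 and 1077 TPM in replicate 2. In such bulk tissue, fewer cells of a type and less RNA per cell cannot be told apart. The between-animal ratio used below is replicate 1 over replicate 2 in expected counts scaled by edgeR's trimmed mean of M-values (TMM), with a prior count of 2. Its interval is an exact 95% binomial interval that covers counting error only. The shares below rest on genes averaging 50 or more normalised counts over the animals, which are 14169 genes of the transcriptome and 33 of the 36 here. A gene is marked as higher in replicate 1 from 25% up and as lower from 20% down, the same step on the log2 scale. Of the 14169 genes, 50.2% were higher in replicate 1 at all, 5.97% were marked as higher and 7% as lower. Derl3, Cdnf and Trib3 fell below the mean of 50 counts.

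The ER stress response element (ERSE), bound by ATF6 together with NF-Y, is the best known promoter motif of these chaperones. It was searched as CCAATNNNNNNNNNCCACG on both strands, from 250 bases before to 50 bases after the transcription start in RefSeq promoters on GRCm38.p6. Of the 36 genes, 32 had such a promoter, and Manf, Atf6, Hyou1 and Derl1 had none. An exact match lay in 9 of the 32 promoters (28.1%), against 37 of 27025 genes with a promoter in the table (0.137%). The 37 genes include these 9. Because the motif was picked as one known from these chaperones, its excess among them is a description and no test. The matches are shown with 5 bases on each side because this motif recurs in several of the genes described next. Each is written 5′ to 3′ on the strand of its gene, and capitals mark CCAAT and CCACG or their reverse complements ATTGG and CGTGG.
Hspa5, chr2:34772020-34772048, plus strand: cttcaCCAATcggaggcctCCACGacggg
Pdia6, chr12:17266486-17266514, plus strand: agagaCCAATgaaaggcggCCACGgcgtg
Dnajc3, chr14:118937822-118937850, plus strand: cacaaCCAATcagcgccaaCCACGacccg
Hsp90b1, chr10:86705528-86705556, minus strand: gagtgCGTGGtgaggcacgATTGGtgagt
Hsp90b1, chr10:86705633-86705661, minus strand: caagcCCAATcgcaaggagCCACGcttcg
Creld2, chr15:88819515-88819543, plus strand: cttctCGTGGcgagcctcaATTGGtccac
Calr, chr8:84847070-84847098, minus strand: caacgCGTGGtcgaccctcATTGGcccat
Canx, chr11:50325795-50325823, minus strand: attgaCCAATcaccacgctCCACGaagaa
Syvn1, chr19:6046527-6046555, plus strand: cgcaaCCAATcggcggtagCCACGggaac
Derl3, chr10:75893237-75893265, plus strand: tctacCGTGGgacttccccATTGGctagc
Hsp90b1 was the member with 2 matches. The Canx, Dnajc3, Hspa5, Pdia6 and Syvn1 matches and 1 of the Hsp90b1 pair read on the strand of the gene, and the others read on the opposite strand. All of these matches lay upstream of the RefSeq start. The Hspa5 match nevertheless lay inside the GENCODE M21 span of its gene, which begins at 34771970, so the 2 annotated starts differ there. The Hspa5 match ended 47 bases before the RefSeq start of Hspa5, and the distal Hsp90b1 match began 212 bases before that of Hsp90b1.

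In the 200 bases before its RefSeq start, the Hspa5 promoter held 3 CCAAT and 1 CCACG, counting both strands, so a single pair met the exact pattern. The Sdf2l1 promoter is printed over the same span because Sdf2l1 had the largest ratio of the 36 genes, given below, and no exact ERSE match.
Sdf2l1, chr16:17132384-17132583, minus strand: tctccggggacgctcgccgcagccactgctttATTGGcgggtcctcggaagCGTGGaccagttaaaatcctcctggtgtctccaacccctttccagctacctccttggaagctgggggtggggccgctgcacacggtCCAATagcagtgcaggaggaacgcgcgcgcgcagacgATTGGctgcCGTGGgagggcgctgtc
Capitals mark its 3 CCAAT and 2 CCACG in either orientation, and no pair of them had the spacing of the exact pattern. A match is a description of the sequence and not evidence of binding.

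The ER chaperones were among the well expressed genes of the cortex, and their order of levels is shown in the plot of TPM by gene. The median of the 36 mean levels was 23.3 TPM, and the median of 17394 detected protein-coding genes was 9.27 TPM, a level that 29 of the 36 exceeded. Both animals had at least 1 TPM for 34 of the genes, at least 10 TPM for 27 and at least 100 TPM for 4. The 36 genes together held 1825 TPM in replicate 1 and 1394 TPM in replicate 2, which was 0.371% and 0.275% of the TPM of protein-coding genes. In the order of mean levels, both animals of a gene lay above both animals of the next in 10 of 35 neighbouring pairs. Calr, Canx, Hspa5 and Hsp90b1 at the top could not be separated from each other in this way, but Hsp90b1 was apart from Pdia3. The other breaks fell below Pdia3, Atf4, Atf6b, Selenos, Derl2, Ppp1r15a, Ern1, Chac1 and Derl3.

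**Figure D1:**
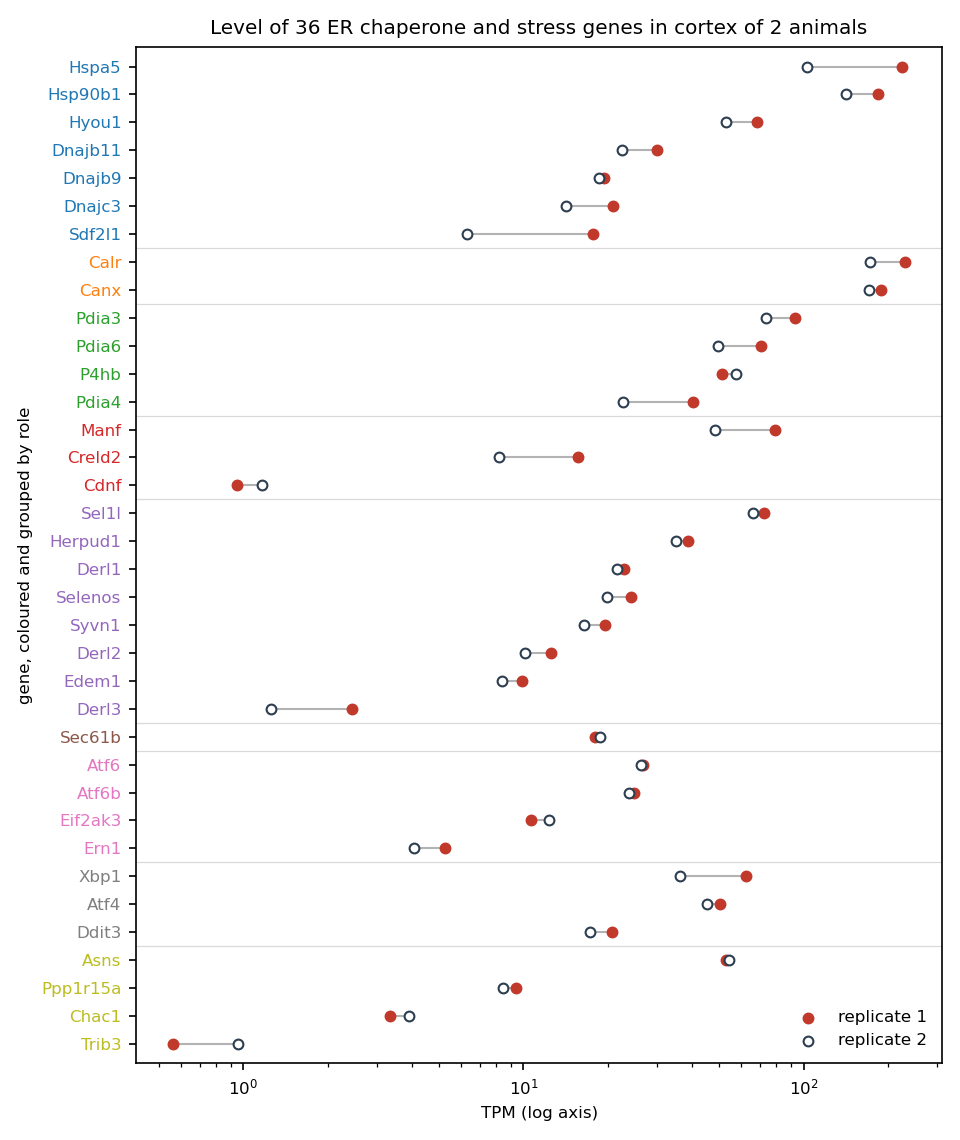
Level of each of the 36 genes in TPM (log axis) in replicate 1 (filled) and replicate 2 (open), with gene names coloured and grouped by role. Calr, Canx, Hspa5 and Hsp90b1 lie above 100 TPM in both animals, and Cdnf and Trib3 lie lowest.

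Among the lumenal chaperones, Hspa5 on chromosome 2 (34771970 to 34777547, plus strand, mm10) encodes BiP, which binds unfolded chains and holds the sensors inactive. It had 225 TPM in replicate 1 and 103 TPM in replicate 2, averaging 164 ± 85.9 TPM (SD, n = 2), from 9353 and 4856 expected counts. The animals thus differed by 2.16-fold in scaled counts (interval 2.09 to 2.24), a log2 ratio of 1.11, which ranked 67 among the 14169 genes. Hsp90b1, whose product Grp94 folds integrins and Toll-like receptors, had 185 TPM in replicate 1 and 142 TPM in replicate 2, for a ratio of 1.28-fold (1.24 to 1.32). Because both chaperones were higher in replicate 1 by different amounts, Hspa5 had 1.21 times the TPM of Hsp90b1 in replicate 1 and 0.726 times in replicate 2. The order of these 2 chaperones was thus reversed between the animals.

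BiP works with cochaperones, whose ratios ranged here from 1.08-fold for Dnajb9 to 2.87-fold for Sdf2l1. Sdf2l1, a partner of ERdj3 in keeping BiP clients soluble, had 17.6 TPM in replicate 1 and 6.27 TPM in replicate 2. Its 313 and 121 expected counts gave the largest ratio of the 36 genes, with an interval of 2.35 to 3.61 and rank 32 among all genes counted. Sdf2l1 (chromosome 16, 17130138 to 17132383, minus strand) held no exact ERSE match in its promoter. Dnajc3, a J-protein that also inhibits PERK, had 20.9 TPM in replicate 1 and 14.2 TPM in replicate 2, for a ratio of 1.51-fold (1.41 to 1.62). Dnajb11, which encodes ERdj3, had 29.9 TPM in replicate 1 and 22.5 TPM in replicate 2, for a ratio of 1.36-fold (1.24 to 1.5). Hyou1, the nucleotide exchange factor of BiP, had 68.5 TPM in replicate 1 and 52.9 TPM in replicate 2, for a ratio of 1.30-fold (1.24 to 1.35). Dnajb9, the J-protein ERdj4 that keeps IRE1 bound to BiP, stood closest to equality among the lumenal genes. It had 19.4 TPM in replicate 1 and 18.6 TPM in replicate 2, and its interval of 0.977 to 1.19 held 1. The 7 lumenal genes were all higher in replicate 1 (50.2% of all genes), and 6 of them by 25% or more (5.97% of all genes). Their median log2 ratio was 0.44.

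The lectin chaperones bind glycoproteins, calnexin (Canx) in the membrane and calreticulin (Calr) in the lumen. Calr on chromosome 8 had 231 TPM in replicate 1 and 173 TPM in replicate 2, the highest mean of the 36 genes at 202 ± 41.0 TPM (SD, n = 2). Its ratio in scaled counts was 1.34-fold (1.29 to 1.38). Canx on chromosome 11 had 189.8 TPM in replicate 1 and 171 TPM in replicate 2, for a ratio of 1.08-fold (1.06 to 1.11). Both promoters hold an ERSE match, shown above, yet the soluble lectin stood further from equality than the membrane one.

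Disulfide isomerases form and rearrange the disulfide bonds of folding proteins. Pdia3, or ERp57, which acts on glycoproteins held by the lectins, had 93.0 TPM in replicate 1 and 73.5 TPM in replicate 2, for a ratio of 1.37-fold (1.31 to 1.44). Pdia6, which also restrains IRE1, had 70.6 TPM in replicate 1 and 49.4 TPM in replicate 2, for a ratio of 1.56-fold (1.46 to 1.66). Pdia4, or ERp72, had the largest ratio of the isomerases. It had 40.3 TPM in replicate 1 and 22.6 TPM in replicate 2, for a ratio of 1.83-fold (1.69 to 1.99). P4hb, the classical isomerase and a subunit of prolyl 4-hydroxylase, differed from these. It had 51.0 TPM in replicate 1 and 57.6 TPM in replicate 2, while its scaled counts gave a ratio of 1.05-fold (0.986 to 1.12). The direction for P4hb thus depends on the unit, as it does for Eif2ak3 and Edem1. Of these 4 isomerases, 3 were higher in replicate 1 by 25% or more (5.97% of all genes), and the median log2 ratio was 0.55.

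Manf encodes a small protein of the ER lumen that protects neurons and is released under stress. It had 79.4 TPM in replicate 1 and 48.4 TPM in replicate 2, for a ratio of 1.83-fold (1.67 to 2.01) from 1220 and 747 counts. Its exons overlap those of Dcaf1 on the opposite strand over 146 bases, and whether counting used the strand is not given in the sources used here. Creld2, an ER protein secreted after stress, had 15.7 TPM in replicate 1 and 8.21 TPM in replicate 2, for a ratio of 1.96-fold (1.65 to 2.36). Cdnf, the close relative of Manf, was nearly silent beside it. It had 0.95 TPM in replicate 1 and 1.17 TPM in replicate 2, from 12 and 32 counts, and its ratio in scaled counts was 0.457-fold (0.198 to 0.84). By TPM, Manf was 83.6 times Cdnf in replicate 1 and 41.3 times in replicate 2, but both multiples are imprecise. The noncoding form Cdnf-203, of 349 bases, held 82.5% of Cdnf TPM in replicate 1 and 55.7% in replicate 2. It rested on 3.44 counts in replicate 1 and 3.11 in replicate 2, so the difference between the 2 multiples is not read further.

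ER-associated degradation draws misfolded proteins back to the cytosol, with Syvn1 (Hrd1) as the ubiquitin ligase and Sel1l as its adaptor. Sel1l was the most abundant gene of this group, with 72.2 TPM in replicate 1 and 66.0 TPM in replicate 2, for a ratio of 1.14-fold (1.10 to 1.19). Herpud1, a scaffold of the ligase complex, had 38.8 TPM in replicate 1 and 35.0 TPM in replicate 2, for a ratio of 1.24-fold (1.14 to 1.35). Syvn1 had 19.6 TPM in replicate 1 and 16.4 TPM in replicate 2, for a ratio of 1.2-fold (1.10 to 1.31). These 3 core genes were thus higher in replicate 1, each by under 25%. Derl1 and Derl2, which encode channel-like derlins, had 22.9 and 12.6 TPM in replicate 1 and 21.6 and 10.1 TPM in replicate 2. Their ratios of 1.09-fold and 1.08-fold lay close to equality. On the opposite strand, Derl2 shares 231 exon bases with Mis12, and Syvn1 shares 91 with Mrpl49, so their values are uncertain where counting ignored the strand. Selenos, a selenoprotein that joins derlins to the VCP extraction motor, had 24.2 TPM in replicate 1 and 19.8 TPM in replicate 2. Edem1, which sends glycoproteins to degradation, had 9.88 TPM in replicate 1 and 8.41 TPM in replicate 2, against a ratio of 0.963-fold in scaled counts. Derl3, the derlin of secretory tissues, was scarce, with 2.45 TPM in replicate 1 and 1.26 TPM in replicate 2, from 45 and 26 counts, and its interval of 1.17 to 3.28 was wide. Of the 7 degradation genes counted, 6 were higher in replicate 1 (50.2% of all genes). None passed the 25% mark (5.97% of all genes) or the 20% mark (7% of all genes), and the median log2 ratio was 0.19. Sec61b, a subunit of the translocon through which proteins enter the ER, had 18.1 TPM in replicate 1 and 18.8 TPM in replicate 2.

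The sensors themselves had ratios closer to 1. Atf6 had 26.7 TPM in replicate 1 and 26.4 TPM in replicate 2, and its relative Atf6b had 24.9 TPM in replicate 1 and 23.8 TPM in replicate 2. Eif2ak3 (PERK) had 10.7 TPM in replicate 1 and 12.3 TPM in replicate 2, against a ratio of 1.03-fold in scaled counts. Ern1 (IRE1), the least abundant sensor, had 5.23 TPM in replicate 1 and 4.06 TPM in replicate 2, and its ratio of 1.21-fold had an interval of 1.06 to 1.38. Atf6 thus had 5.10 times the TPM of Ern1 in replicate 1 and 6.50 times in replicate 2. The median log2 ratio of the 4 sensors was 0.07. None passed the 25% mark (5.97% of all genes) or the 20% mark (7% of all genes).

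The transcription factors differed in their ratios. Xbp1, on chromosome 11 (5520659 to 5525893, plus strand), had 62.2 TPM in replicate 1 and 36.3 TPM in replicate 2, from 2046 and 1270 counts. Its ratio was 1.81-fold (1.69 to 1.94). Atf4 had 50.4 TPM in replicate 1 and 45.1 TPM in replicate 2, for a ratio of 1.13-fold (1.05 to 1.22). Xbp1 was therefore 1.23 times Atf4 in replicate 1 and 0.806 times Atf4 in replicate 2, so that their order was reversed between the animals. Ddit3 had 20.7 TPM in replicate 1 and 17.3 TPM in replicate 2, for a ratio of 1.22-fold (1.03 to 1.45) from 286 and 262 counts. A second annotated gene named Ddit3 had 0 counts in both animals, and Ddit3 shares 68 exon bases with Mars on the opposite strand, so its value is uncertain.

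Active XBP1 is made only after IRE1 removes 26 bases from the mRNA. The stretch is printed from the GENCODE M21 transcript Xbp1-201, with the 26 bases at chr11:5524282-5524307 (plus strand, mm10) in capitals. The letters CAG stand both just before the capitals and at their end. Removing 26 bases from the earlier CAG onward leaves the same joined form, so the capitals do not mark the cut sites.
Xbp1: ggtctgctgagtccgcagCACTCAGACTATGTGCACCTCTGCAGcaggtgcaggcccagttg
These bases were present in 3 of the 4 annotated Xbp1 transcripts, and 0 of the 4 held the joined form. The Xbp1 level is therefore total mRNA, and its spliced share cannot be read from these tables.

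Genes further down the PERK and ATF4 branch had low levels or ratios near 1. Asns, the asparagine synthetase, was the abundant one, with 53.0 TPM in replicate 1 and 54.0 TPM in replicate 2, and its interval of 0.904 to 1.03 held 1. Ppp1r15a, the phosphatase subunit that ends the PERK signal, had 9.41 TPM in replicate 1 and 8.45 TPM in replicate 2. Chac1, which degrades glutathione, had 3.33 TPM in replicate 1 and 3.91 TPM in replicate 2, and its 90 and 115 counts gave an interval of 0.66 to 1.17. Ppp1r15a and Chac1 thus lay below the median level of detected protein-coding genes. Trib3, a pseudokinase induced by CHOP, had 0.56 TPM in replicate 1 and 0.96 TPM in replicate 2, from 19 and 29 counts with an interval of 0.39 to 1.36. Of the 3 outputs counted, 1 was higher in replicate 1 (50.2% of all genes). None passed the 25% mark (5.97% of all genes) or the 20% mark (7% of all genes), and the median log2 ratio was -0.05. Hspa5 thus had 4.24 times the TPM of Asns in replicate 1 and 1.91 times in replicate 2.

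The ATF4 branch has its own motif, the C/EBP-ATF response element, searched as TGATGNAA on both strands. It lay in 5 of the 32 promoters (15.6%), those of Asns, Cdnf, Chac1, Herpud1 and Trib3, against 4.51% of all genes with a promoter. This motif too was picked for a known link to its branch, so the shares are a description and no test. The matches upstream of the RefSeq starts of Asns, Chac1 and Herpud1 are shown because these 3 genes passed the count minimum. Capitals mark the fixed bases of the motif.
Asns, chr6:7693220-7693237, minus strand: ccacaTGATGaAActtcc
Chac1, chr2:119351044-119351061, plus strand: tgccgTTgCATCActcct
Herpud1, chr8:94386312-94386329, plus strand: gcgggTTgCATCAgcccg
The Asns match lay on the strand of the gene, 23 to 16 bases before the RefSeq start, but inside the GENCODE M21 span of Asns. Herpud1 also held the second ER stress element, searched on both strands as ATTGG and CCACG with 1 base between them, which was added after the data were seen.
Herpud1, chr8:94386372-94386392, plus strand: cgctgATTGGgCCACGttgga
This second element lay in the promoters of Herpud1 and Dnajb11, against 0.0444% of all genes with a promoter. The unfolded protein response element TGACGTGG, whose reverse complement overlaps the CCACG letters, was in 0 of the 32 promoters and in 0.714% of all genes. No match says only that these letters are absent from this window.

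The ratios of the 36 genes are drawn in the plot of log2 ratios. Of the 33 genes counted, 29 were higher in replicate 1, where 50.2% of all 14169 genes were higher. Higher by 25% or more were 13 of the 33, where the share of all genes was 5.97%. Lower by 20% or more were 0 of the 33, where the share of all genes was 7%. At least 2-fold apart were 2 of the 33, Hspa5 and Sdf2l1, where the share of all genes was 0.861%. The median log2 ratio was 0.27 over the 33 genes and 0.00 over all genes. The 13 genes were Sdf2l1, Hspa5, Creld2, Pdia4, Manf, Xbp1, Pdia6, Dnajc3, Pdia3, Dnajb11, Calr, Hyou1 and Hsp90b1. They comprise 12 genes that encode folding or secreted proteins of the ER and 1 transcription factor. Counting intervals lay above 1 for 22 of the 33, where the share of all genes was 18%. They lay below 1 for 0, where the share of all genes was 15.4%, and across 1 for 11.

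**Figure D2:**
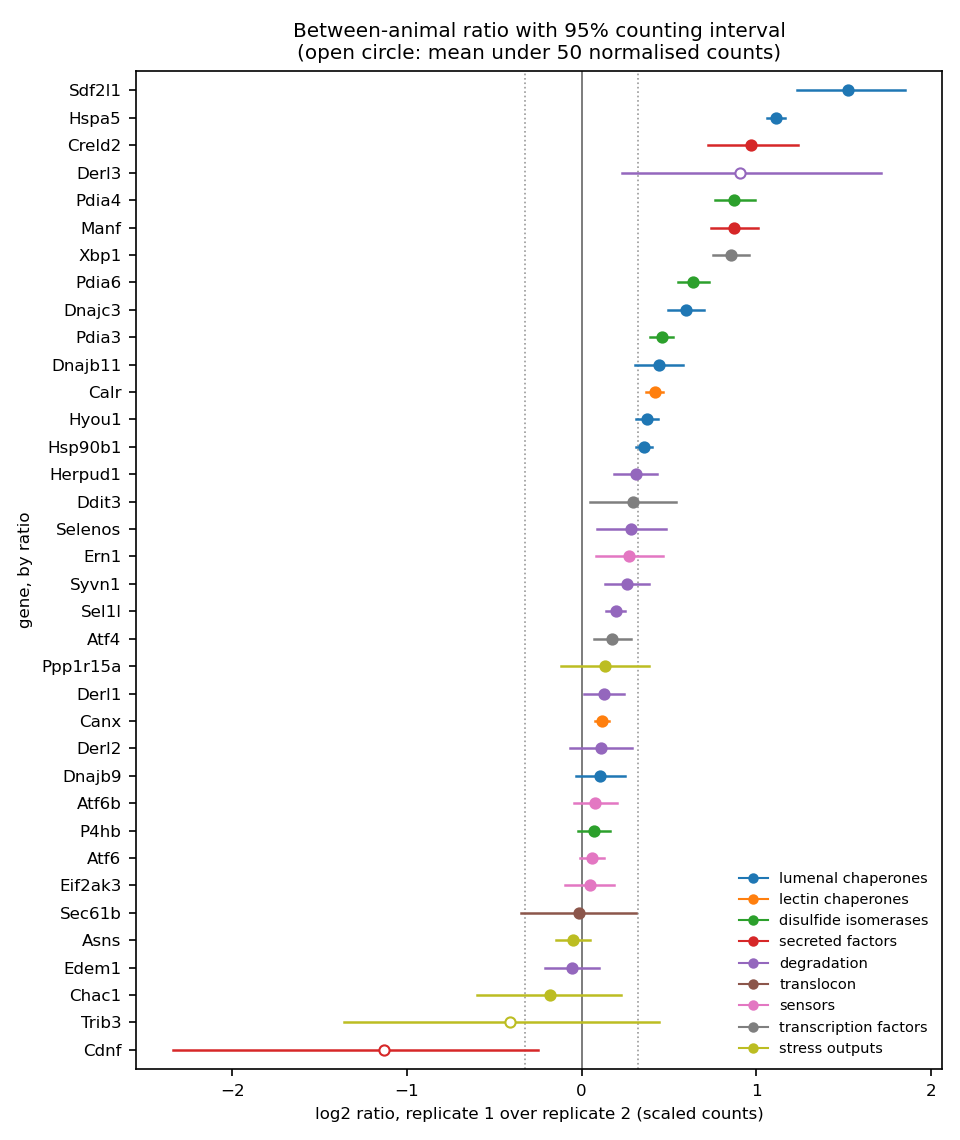
Log2 ratio of scaled counts, replicate 1 over replicate 2, for the 36 genes, with 95% counting intervals, colours by role and open circles for the 3 genes below the count minimum. Dotted lines mark 25% higher and 20% lower, and the 13 filled points right of the upper mark are folding genes, secreted factors and Xbp1.

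A second deposited quantification, made from the reads themselves, gave closely similar ratios. In scaled estimated counts, 30 of the 33 genes were higher in replicate 1 (51.1% of 15039 genes). Higher by 25% or more were 15 (6.52% of all genes), the same 13 with Herpud1 and Ddit3. Lower by 20% or more were 0 (8.17% of all genes), and at least 2-fold apart were 2 (0.958% of all genes). Sec61b alone differed in direction between the quantifications among the 33 genes. The TPM values of the second quantification cannot be set side by side in this way, since the median log2 TPM ratio of 14005 genes was -0.54 there. On that TPM scale 9 of the 33 genes were higher in replicate 1, against 28 of the 33 in the TPM of the first quantification. Hspa5 had 192 TPM in replicate 1 and 126 TPM in replicate 2 there, and Calr had 235 TPM in replicate 1 and 260.1 TPM in replicate 2.

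**Figure D3:**
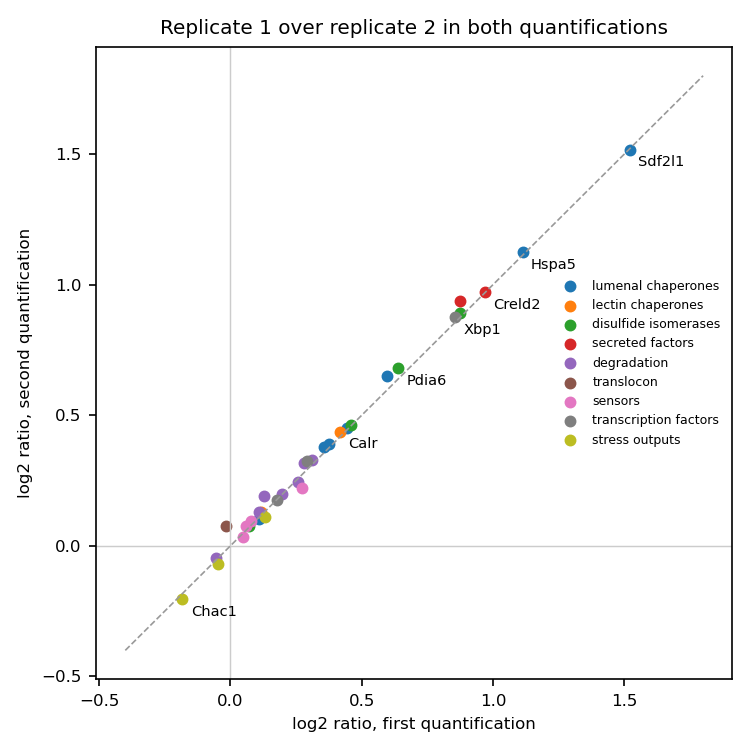
Log2 ratio of scaled counts, replicate 1 over replicate 2, in the first (horizontal) and second (vertical) quantification for the 33 genes counted, with the line of equality dashed. Points follow the line from Chac1 at the lower left to Sdf2l1 at the upper right.

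Other genes of the same pathways, from lists drawn up by function, lay close to equality, as the plot by gene group shows. These lists leave out the genes described above, and both were chosen with earlier results of these data known. The contrast between them is therefore not independent of that choice, and it is given as a description with no test. Of 21 other genes of ER quality control and degradation, 0 passed either mark, and their median log2 ratio was 0.05. The most abundant of them, Vcp, had 78.7 TPM in replicate 1 and 83.0 TPM in replicate 2. Uggt1, the glucosyltransferase that checks glycoprotein folding, had the largest ratio in that list at 1.18-fold, and Edem2 the smallest at 0.804-fold. Of 16 other oxidative folding genes, 1 was higher by 25% or more in replicate 1 and 0 were lower by 20%, with a median of -0.01. That gene was Ero1lb, an oxidase that reoxidises disulfide isomerases. It had 7.76 TPM in replicate 1 and 5.30 TPM in replicate 2. Tmx2, the most abundant of the list, had 111 TPM in replicate 1 and 118 TPM in replicate 2, and Pdia5 had the smallest ratio at 0.809-fold. In the second quantification Pdia5 stood at 1.09-fold and the median of this list at 0.05, so both directions turned.

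Of 21 other translocon and signal peptide genes, 0 passed either mark, with a median log2 ratio of 0.03. Rpn1, a subunit of the oligosaccharyltransferase, had 94.2 TPM in replicate 1 and 80.4 TPM in replicate 2. The largest ratio there was 1.18-fold for Spcs2 and the smallest 0.870-fold for Ssr4. Of 18 other integrated stress response targets, 2 were higher by 25% or more in replicate 1 and 0 lower by 20%, with a median of 0.04. These were Mthfd2, a mitochondrial folate enzyme with 5.18 TPM in replicate 1 and 2.64 TPM in replicate 2, and Cth, which makes cysteine. Slc3a2, an amino acid transporter subunit, had 69.2 TPM in replicate 1 and 69.3 TPM in replicate 2, and Nupr1 had the smallest ratio at 0.912-fold. Of 19 partners of the stress sensors and related stress genes, 0 were higher by 25% and 2 were lower by 20% or more, with a median of 0.02. Bbc3, a pro-apoptotic gene, had 2.28 TPM in replicate 1 and 7.25 TPM in replicate 2, Eif2b3 was the other one, Creb3l2 had the largest ratio at 1.22-fold, and Tmbim6 was the most abundant. In the second quantification 1 of the 19 was lower by 20% or more, as Eif2b3 no longer passed that mark, and Ddit4 joined the stress response targets above the 25% mark.

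**Figure D4:**
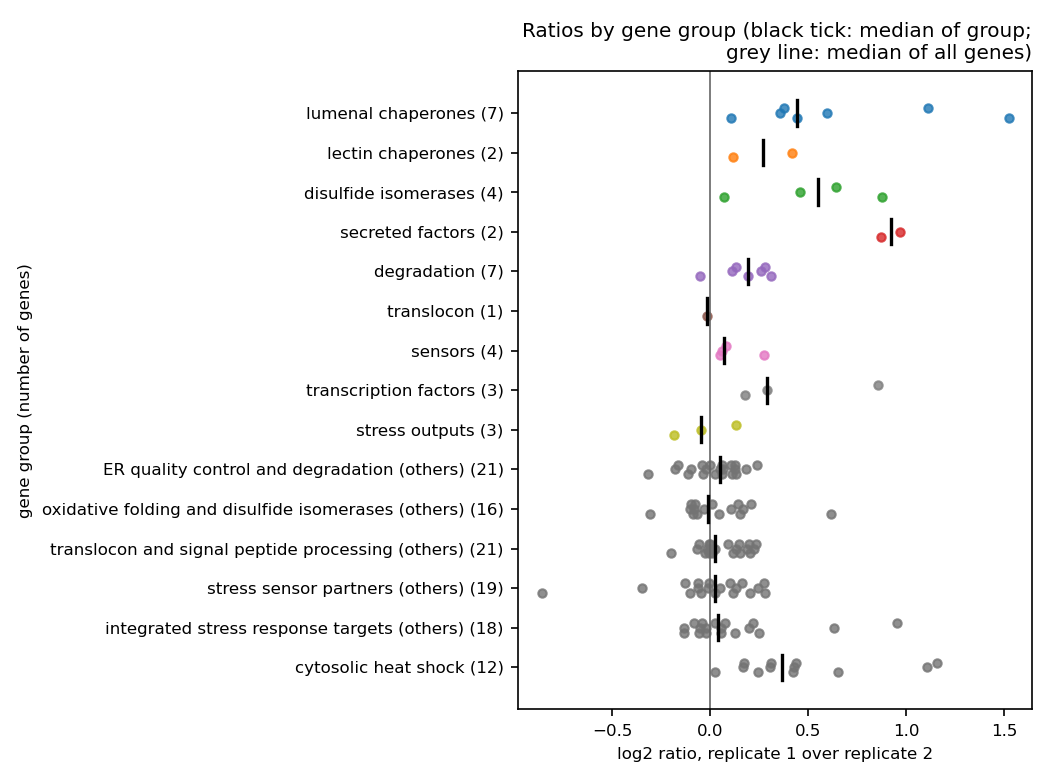
Log2 ratio of scaled counts, replicate 1 over replicate 2, for each counted gene of the role groups (coloured) and of the other lists (grey), with the group median as a black tick and the median of all genes as a grey line. The lumenal chaperones, isomerases, secreted factors and the cytosolic heat shock list (with the mitochondrial Hspd1 and Hspe1 and with Hsf1) have medians of 0.37 or more. The grey ER lists have medians of 0.05 or less.

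The list of cytosolic heat shock genes, which act outside the ER, also holds the mitochondrial chaperones Hspd1 and Hspe1 and the transcription factor Hsf1. All 12 genes of the list were higher in replicate 1 (50.2% of all genes), and 6 were higher by 25% or more (5.97% of all genes). Their median log2 ratio was 0.37. Hspa8 had 1031 TPM in replicate 1 and 782 TPM in replicate 2, Hspa1b had the largest ratio at 2.23-fold, and Hsf1 the smallest at 1.02-fold. The 2 libraries differed in other gene lists too. Of the 10 choroid plexus markers, 8 passed the count minimum and all 8 were at least 2-fold higher in replicate 1. Of all genes, 0.861% were at least 2-fold apart in either direction. The choroid plexus list summed to 975 TPM in replicate 1 and 108 TPM in replicate 2, with Kcne2 at 0 in replicate 2. Ttr, the most abundant of the list, had 711 TPM in replicate 1 and 2.4 TPM in replicate 2. Enpp2, with the smallest ratio, had 225 TPM in replicate 1 and 101 TPM in replicate 2, which was most of the list's sum in replicate 2. The 14 immediate early genes were each higher by 25% or more in replicate 1 in the first quantification, and they summed to 594 TPM in replicate 1 and 262 TPM in replicate 2. The 5 erythroid genes summed to 577 TPM in replicate 1 and 414 TPM in replicate 2. The 5 endothelial markers were also all higher in replicate 1, none by 25%, with a median log2 ratio of 0.17. They summed to 129 TPM in replicate 1 and 114 TPM in replicate 2, with none at 0. The part of these lists in the chaperone ratios was not tested. Microglial markers had a median log2 ratio of 0.07, neuron markers of -0.05, astrocyte markers of 0.01 and oligodendrocyte markers of 0.00. The 5 plasma cell markers, of a cell type rich in these chaperones, summed to 0.98 TPM in replicate 1 and 1.70 TPM in replicate 2, with Mzb1 at 0 in replicate 1, and none of them passed the count minimum.

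Ratios were also set beside the promoter matches printed above. The genes and the motifs were chosen with earlier results of these data known, so these values are a description. A link between motif and ratio was not tested. Of the 9 genes with an exact ERSE match, 8 were counted and all 8 were higher in replicate 1 (50.2% of all genes). Higher by 25% or more were 6 (5.97% of all genes), and the median log2 ratio of the 8 was 0.51. The 6 were Hspa5, Creld2, Pdia6, Dnajc3, Calr and Hsp90b1, and the others were Syvn1 and Canx. Outside the 36 genes, 28 genes had an exact ERSE match and 9 of them were counted. Of these 9, 3 were higher in replicate 1, 0 by 25%, 2 were lower by 20% or more, and the median log2 ratio was -0.04. In the second quantification 1 of the 9 was lower by 20% or more, as Alg12 no longer passed that mark. Among the 36, the 19 counted genes with a promoter but with neither ER stress element had a median log2 ratio of 0.13. Of these 19, 15 were higher in replicate 1 (50.2% of all genes), and 4 were higher by 25% or more (5.97% of all genes). Those 4 were Sdf2l1, Pdia4, Xbp1 and Pdia3. The 3 counted genes with the ATF4 branch motif had a median of -0.05, and 267 other genes with that motif had a median of -0.01.

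The tables also divide each gene among its annotated transcripts. The same transcript led in both animals and both quantifications for 33 of the 36 genes, and it held over 80% of the gene's TPM in both animals for 22 in the first quantification and for 14 in the second. Hspa5-202 held 92.0% in replicate 1 and 94.9% in replicate 2, and Hsp90b1-201 held 90.6% in replicate 1 and 95.7% in replicate 2. Xbp1-201 held 86.4% in replicate 1 and 82.5% in replicate 2. Chac1, Creld2, Dnajc3 and Sdf2l1 have a single annotated transcript. The exceptions to a shared leader were Cdnf, Derl3 and Hyou1. For Hyou1 the first quantification gave Hyou1-201 the lead, with 55.5% in replicate 1 and 40.9% in replicate 2. The second gave Hyou1-206 82.1% in replicate 1 and 81.2% in replicate 2, so the choice between these 2 coding forms is not settled by the tables.

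Transcript forms without a coding annotation held over 10% of TPM in both animals for 9 genes in the first quantification and 13 in the second. By share of counts this held for 3 genes, TPM being a level per length. Manf-205, a retained intron form, took 32.6% of Manf TPM in replicate 1 and 38.0% in replicate 2 in the first quantification, but 5.12% in replicate 1 and 3.49% in replicate 2 in the second. Sel1l-202, a processed transcript of 509 bases, held 20.2% of Sel1l TPM in replicate 1 and 17.2% in replicate 2 in the first quantification, and 0% in both in the second. Atf4-203, which retains an intron, held 4.80% of Atf4 TPM in replicate 1 and 12.7% in replicate 2 in the first quantification. These shares were estimates that moved more between quantifications than the gene ratios did.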

How the data were processed

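Total RNA of left cerebral cortex from 2 animals was analysed. Per the file headers, the deposited gene and transcript tables hold expected counts, TPM, FPKM, each transcript's percent of its gene and bounds of a TPM credibility interval, which were not used. Per the notes deposited with them, they were made from transcriptome alignments on mm10 with GENCODE M21, and a second transcript table with estimated counts and TPM was made from the reads. Programs, settings and use of strand were not given in the sources used here. The 36 genes, the gene lists and the motifs were chosen with earlier results of these data known.

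Expected counts were rounded for library sizes, which excluded 356 ribosomal RNA genes, tRNA entries and spike-ins and came to 24688669 in replicate 1 and 27440152 in replicate 2. Ratios were computed with edgeR 4.0.16 TMM factors, with DESeq2 1.42.0 size factors as an alternative. No test was possible between 2 animals of 1 group, so no p-value is given. For Ddit3, which has 2 gene entries, the entry of higher TPM was taken. Counts were whole in both animals for 34 of the 36 genes. Named genes were drawn from the 36 genes and from the most abundant gene and those with the largest and smallest ratio of each other list. For the marker lists not all such genes were named. Transcripts were drawn from those with over 5% of a gene. Hspd1 and Hspe1 were named for their place in the cell. Cth, Eif2b3, Ddit4, Alg12 and the markers at 0 were named after their values were seen. Counts were simulated for 14153 genes with a coefficient of variation of 0.1, which was set and not estimated from these data. There 200 of 200 genes changed 2-fold passed the 25% or 20% mark, as did 16.7% of unchanged genes. The changed genes were not split by count level, so no recovery rate is given for genes near the minimum of 50 counts. Under the variation that was set, an unchanged gene can pass a mark. In the data themselves 5.97% of all genes passed the 25% mark and 7% the 20% mark, so the simulated variation need not match theirs. Other tools were matplotlib 3.10.9, scipy 1.17.1, numpy 2.4.6, pandas 2.3.3, Python 3.11.15 and R 4.3.3.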

Additional observations from a re-analysis of the deposited data

How the results depend on the processing

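The counts of genes at each mark stayed close to those reported, and none reversed, under DESeq2 size factors, library size, a prior count of 0.5, deposited TPM with a pseudocount of 0.1 and the second quantification. Spike-in scaling moved the median log2 ratio of all genes to 0.07. Under it 32 genes were higher in replicate 1, where 68.2% of all genes were higher. Higher by 25% or more were 18 (9.5% of all genes), and at least 2-fold apart were 3 (0.903% of all genes). With a minimum mean of 10 counts, or with no minimum, 2 genes, Cdnf and Trib3, became lower by 20% or more in replicate 1, against 0. With a minimum of 500, chosen after the data were seen, 25 genes were counted and 1 was at least 2-fold apart, since Sdf2l1 was left out. The median level of 23.3 TPM was 25.6 TPM in the second quantification, 46.7 TPM when rescaled to protein-coding genes and 15 FPKM. With each animal alone it lay between 22.1 and 24.6 TPM. No paired analysis was possible because there is 1 group. The planned protein features were not run. Counts of 12 to 45 limit Cdnf, Trib3 and Derl3.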
